A study of Mus musculus with 6 samples.

Results

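The 3 control libraries of P19 cells, of 6 libraries in the series, are described here as a baseline transcriptome. They were chosen by their label, which gives the treatment as none. P19 is a mouse embryonal carcinoma line, a tumour-derived line that resembles pluripotent cells of the early embryo and can be driven towards neural or cardiac fates. The cells of all 6 libraries were grown in serum-containing alpha-MEM medium with penicillin and streptomycin, with no leukaemia inhibitory factor named in the labels. The other 3 libraries were treated with the peptide PDTLN1 and were not used here. All samples come from 1 cell line, and whether the 3 libraries were separate cultures is not given by the labels, so the spread between them is possibly technical. The labels' extraction text speaks of retinas, while the samples are labelled as P19 cells, and retinal genes are therefore among those described. With 1 group there is no contrast, and values are given as a description with their SD over the 3 libraries and with no test.

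Pluripotent cells keep the ability to make every tissue of the embryo through a network of transcription factors around Oct4 (gene Pou5f1), Sox2 and Nanog. In the mouse this state is known in a naive form, close to the inner cell mass and held by LIF, and in a primed form, close to the epiblast after implantation and held by FGF and Activin or Nodal. Embryonal carcinoma cells divide fast, with little control at the start of DNA synthesis, and rely on glycolysis for much of their energy.

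Levels are the FPKM values deposited by the authors, read counts divided by a gene length and by library size. For 67.7% of the genes compared, the length behind them matched the sum of all distinct exons, with overlapping exons of different transcripts counted repeatedly. Between the 5th and 95th percentile of genes it was 0.464 to 2.16 times the union of a gene's exons. Against the union, FPKM was thus lowered for some genes and raised for others, such as Pkm with a length of 2599 against 5001 bases. The order of genes with close levels depends on this length. With the union as length, the highest member was the same in 28 of the 38 lists of genes with at least 2 on and another in 10. The 10 were the neural, neural crest, FGF and ERK, BMP, receptor tyrosine kinase, gluconeogenesis, citric acid cycle, one-carbon, nucleotide synthesis and antioxidant lists. A gene is called on at a mean of at least 1 FPKM, low from 0.1 to 1 FPKM and silent below 0.1 FPKM. Of 34745 genes in the table, 11496 were on, which is 33.1% of all genes, and 18708 were silent (53.8%). Among the 21633 protein-coding genes, 10892 were on (50.3%) and 7694 were silent (35.6%), and 5376 had no count in any of the 3 libraries. Total counts ran from 10450134 to 11177756. A count of 0 in 1 library allows up to 3 counts, which for a gene of 1 kilobase is 0.268 to 0.287 FPKM and for longer genes less, so silence of a short gene rests on all 3 libraries together, and this limit covers counting error only. Of the 11496 genes on, 37.9% were highest in library 1 and 38.9% lowest there, against 34.8% and 33.1% in library 3. Control library 1 stood somewhat apart: of 4540 genes at 10 FPKM or more, 31 were at least 1.5-fold below both other libraries there, against 14 in library 2 and 11 in library 3. Without that library 11480 genes were on. RNA from whole cultures was measured, so fewer cells of a type and less RNA per cell cannot be told apart.

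All 4 genes taken as markers of the line were on in each library. Pou5f1, the Oct4 gene at chr17:35506018-35510772, was at 535, 539.8 and 559 FPKM in libraries 1, 2 and 3, a mean of 545 ± 12.4 (SD, n = 3), and ranked 42 among all genes. Lin28a (chr4:134003330-134018841), an RNA-binding protein that blocks maturation of let-7 microRNAs, was at 205, 195 and 212 FPKM. Nanog (chr6:122707489-122714633) was at 35.3, 43.7 and 42.5 FPKM, lowest in library 1. Dnmt3b (chr2:153649450-153687730), a methyltransferase that sets new DNA methylation, was at 40.9, 38.3 and 38.2 FPKM. Of the 15 retinal and photoreceptor genes 11 were silent, 3 were low and 1 was on (6.67%, beside 50.3% of all protein-coding genes). The photoreceptor regulators Crx and Nrl, the cone opsins Opn1sw and Opn1mw, the cone arrestin Arr3 and the pigment epithelium gene Rpe65 had 0 counts in all 3 libraries. The one gene that was on, the photoreceptor disc protein gene Rom1, was at 3.20, 4.29 and 3.17 FPKM.

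The most abundant transcripts per length served respiration and protein synthesis. Of the 25 highest genes with a gene name, 11 were mitochondrially encoded, led by mt-Atp8 at 10399, 10691 and 9502 FPKM and mt-Co1 at 9185, 9773 and 9704 FPKM, subunits of ATP synthase and cytochrome c oxidase. The gene mt-Atp8 is 204 bases long and overlaps mt-Atp6. It had 22168, 23319 and 21667 counts, against 148300, 161451 and 167578 for mt-Co1, so its lead rests on its short length. The 11 include mt-Nd4l, which had 1 count in library 2. Mitochondrial transcripts took 4.01%, 3.71% and 3.56% of the counts in libraries 1, 2 and 3. Among nuclear genes, Rpl4, a protein of the large ribosomal subunit, came first at 1824, 1848 and 1868 FPKM by the deposited length. The pyruvate kinase gene Pkm, the last step of glycolysis, followed at 1694, 1699.9 and 1637 FPKM. The elongation factors Eef2 at 1436, 1654 and 1702 FPKM and Eef1a1 at 1482, 1567 and 1585 FPKM, move the ribosome along and bring it charged tRNA. With the union of exons as length the order was another, and Eef1a1 came first at a mean of 3468 ± 124 FPKM. Hsp90ab1 at 2056 ± 30, Ftl1 at 1646 ± 326, Npm1 at 1491 ± 34.7, Eef2 at 1489 ± 132 and Rpl4 at 1308 ± 15.4 followed. Pkm was further down at 872 ± 18.1. By the deposited length the chaperone gene Hsp90ab1 was at 1052, 1062 and 1083 FPKM and the ribosome assembly factor Npm1 at 1001, 961 and 999.8 FPKM. The ferritin light chain gene Ftl1 was at 627, 778 and 936 FPKM, lowest in library 1. The SD was 1.18% of the mean for Rpl4 and 3.58% for Eef1a1, but 19.8% for Ftl1. Of 82 genes of cytosolic ribosomal proteins 76 were on, beside 50.3% of all protein-coding genes, with a median of 42.2 FPKM. Some have near-identical copies outside this set that were higher, as Rps2 at a mean of 9.60 FPKM against 651 FPKM for Rps2-ps10. Others, such as Rpl13a at 650 FPKM against 0.508 FPKM for Rpl13a-ps1, were far above their copy. The count and median therefore depend on how reads were assigned to copies. The abundance was concentrated: the 10 genes with most counts held 5.62% to 5.76% of a library, the top 100 held 17.4% and the top 1000 held 47.8%. At 100 FPKM or more there were 346 genes, and at 1000 FPKM or more 22.

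A large part of the highest list was made of copies of other genes. Of the 100 highest genes, 15 were processed pseudogenes, intronless copies of a messenger RNA in the genome, and 7 were unprocessed pseudogenes. The unprocessed ones include a block on chromosome 1, at 24611535 to 24616197, whose members match mitochondrial genes: Gm28661 was identical to mt-Co2 over 681 bases and was at 1008, 501 and 1188 FPKM, lowest in library 2. Reads from such pairs cannot be assigned by sequence where they are identical, and how reads with several matches were counted is not given in the sources used here. Likewise Eif4a-ps4 on chromosome 1 was at 1172, 1111 and 1120.3 FPKM, and its parent gene Eif4a1, the RNA helicase of translation initiation, was at 77, 74.1 and 75.3 FPKM. Among 913 genes of the lists and families used here, 121 had a near copy in the annotation, defined as at least 95% identity over at least 200 bases and over 50% of the shorter transcript, which can be a pseudogene or a paralog. For 72 the copy was in the table, and for 23 the copies in the table held more counts than the gene itself. By class, near copies were found for 48 of 207 metabolic genes, 10 of 252 signalling genes and 11 of 208 lineage genes.

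A set of 2 pairs, chosen after their values were seen for a copy above the gene, shows how close the copies are, and their coding strands are printed 5′ to 3′ from GENCODE release 21 (GRCm38). Ahcy (chr2:155059310-155074497) encodes the enzyme that removes S-adenosylhomocysteine after methylation, and its copy Gm4737 lies at chr16:46152997-46155077. The copy differed at 4 of 1296 coding bases, and bases 1014 to 1103 hold 2 of them, marked by capitals.
Ahcy: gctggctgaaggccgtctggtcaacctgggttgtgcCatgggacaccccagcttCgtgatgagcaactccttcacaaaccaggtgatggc
Gm4737: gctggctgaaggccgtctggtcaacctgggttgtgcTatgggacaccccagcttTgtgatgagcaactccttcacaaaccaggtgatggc
Eif4a1 (chr11:69666936-69672423) and Eif4a-ps4 (chr1:60703932-60705149) differed at 1 of 1218 coding bases, marked by a capital within bases 489 to 578.
Eif4a1: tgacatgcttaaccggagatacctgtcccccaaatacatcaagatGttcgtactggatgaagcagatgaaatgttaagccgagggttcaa
Eif4a-ps4: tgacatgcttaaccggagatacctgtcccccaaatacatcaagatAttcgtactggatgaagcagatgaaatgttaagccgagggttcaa

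In each of these pairs the intronless copy was the higher of the 2 entries in every library. Ahcy was at 2.13, 2.08 and 2.02 FPKM, from 211 counts in all, and Gm4737 at 169.5, 173 and 177 FPKM, from 11652 counts. Eno1, the enolase of glycolysis, was at 51.7, 47.4 and 46.4 FPKM and its copy Eno1b at 413, 417 and 421 FPKM. Gapdh, a glycolytic enzyme often used as a reference gene, was at 6.28, 5.79 and 5.14 FPKM, and it had 102 near copies in the annotation, 7 of which were in the table with 392 counts together, against 1596 for Gapdh. In other pairs the gene was far above its copy, as with Ldha at a mean of 318 FPKM against 7.35 FPKM for Ldha-ps2. The levels of Gapdh, Ahcy, Eif4a1 and Eno1 in this table are therefore uncertain as levels of those genes. The same holds for ribosomal protein genes with a higher copy, such as Rps2 and Rpl11.

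**Figure D1:**
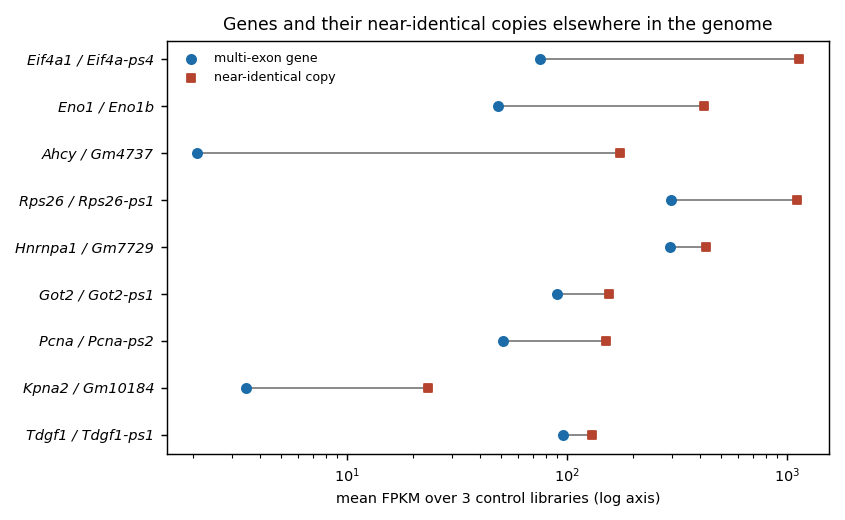
Mean FPKM over the 3 control libraries (log axis) of 9 multi-exon genes (circles) and of a near-identical copy elsewhere in the genome (squares), joined by a line for each pair. The pairs were picked because the copy is higher in FPKM, and their values run from 2.08 against 173 FPKM for Ahcy to 95.2 against 129 FPKM for Tdgf1. By counts, copies were above the gene for 23 of the 72 listed genes with a copy in the table. The drawn copies of Hnrnpa1, Got2 and Tdgf1 held fewer counts than the gene.

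Genes of the pluripotency network were mostly on, and among factors associated with the naive state some were low or silent and some were on. Of 39 genes on the pluripotency list 28 were on (71.8%, beside 50.3% of all protein-coding genes), 7 low and 4 silent. The list had a median of 6.20 FPKM against 1.04 FPKM over all protein-coding genes. After Pou5f1 and Lin28a, the highest were Tdgf1 (Cripto, the Nodal co-receptor) at 109, 92.1 and 84 FPKM, the RNA-binding protein gene L1td1 at 102, 87.7 and 82.6 FPKM, and the chromatin-bound factor gene Utf1 at 62.7, 59.5 and 59.4 FPKM. Tdgf1 and L1td1 were highest in library 1 and lowest in library 3. Sox2 showed the same order with a wider spread, at 47.9, 32.2 and 27.2 FPKM. Lin28b, the paralog of Lin28a, was at 38.3, 35.8 and 35.9 FPKM.

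Members named in this and other lists that are neither among the highest 6 nor silent were chosen after their values were seen. Esrrb, an orphan nuclear receptor of naive cells, was at 0.300, 0.276 and 0.289 FPKM, and Zfp42, the Rex1 gene often used as a marker of naive cells, at 0.213, 0.156 and 0.149 FPKM. Zfp42 has 1 near copy in the annotation that is not in the table, so its level is uncertain in the way of Gapdh. Tfcp2l1, a factor downstream of LIF, was at 0.937, 0.624 and 0.839 FPKM. Klf4 was at 0.890, 1.06 and 1.54 FPKM and Tbx3 at 0.904, 1.42 and 1.41 FPKM, both on by their mean and under 1 FPKM in library 1. Silent were Nr5a2, a nuclear receptor upstream of Pou5f1, Prdm14, a repressor that protects naive and germ cells, Tcl1, a cofactor of Akt, and Zscan4c, a gene of cells resembling the 2-cell embryo. Zscan4c had 0 counts in all libraries, though it has 8 near copies in the annotation. Dppa3, the Stella gene, had 3 counts, all in library 2, and Dnmt3l, the partner of the new-methylation enzymes, was at 0.303, 0.465 and 0.445 FPKM. Klf2 at 3.83, 4.76 and 5.86 FPKM and Klf5 at 5.23, 7.61 and 10.5 FPKM, factors that are also part of the naive network, were on in each library, lowest in library 1. The gene just above the threshold was Klf4 with a mean of 1.16 ± 0.338 FPKM and the one just below it Tfcp2l1 with 0.800 ± 0.160 FPKM.

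Genes of the primed and formative state were on in 17 of 19 cases (89.5%, beside 50.3% of all protein-coding genes), with a median of 11.5 FPKM. The kinase gene Pim2 led at 171, 174 and 165 FPKM. The Nodal antagonist gene Lefty1 was at 52.9, 44.7 and 34.8 FPKM, and Nodal itself at 48.4, 40.9 and 36.7 FPKM, both highest in library 1 and lowest in library 3. Sox4 was at 39.9, 34.2 and 33.5 FPKM and Sox11 at 21.7, 14.5 and 13.3 FPKM. Otx2, the homeobox factor that marks the exit from the naive state, was at 18, 20.02 and 18.9 FPKM. Fgf5, a ligand used as a marker of the epiblast after implantation, was low among the genes that were on, at 3.89, 2.62 and 2.83 FPKM, as was Pou3f1 (Oct6) at 3.03, 2.60 and 2.16 FPKM. Cer1, a secreted antagonist of the anterior visceral endoderm, was silent and the epithelial factor gene Grhl2 was low, at a mean of 0.380 ± 0.147 FPKM. Members of this list were on average 0.12 log2 units above the mean of the libraries in library 1 and 0.11 below it in library 3, and 12 of the 17 were highest in library 1, beside 37.9% of all genes on.

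**Figure D2:**
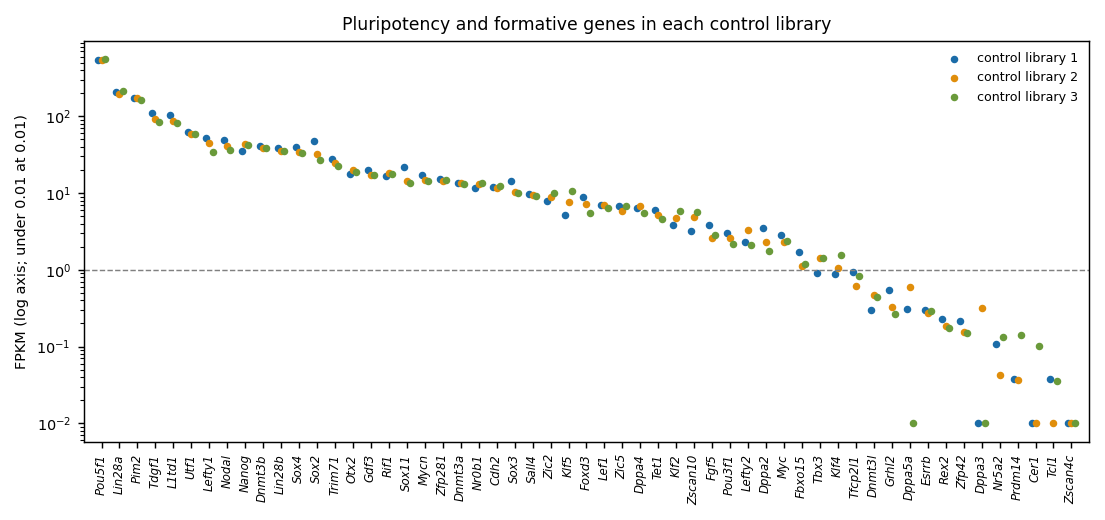
FPKM (log axis, values under 0.01 drawn at 0.01) of each pluripotency and formative gene in control libraries 1, 2 and 3, ordered by mean, with a dashed line at 1 FPKM. The points run from Pou5f1, at 535 to 559 FPKM, to Zscan4c at 0, and Esrrb, Zfp42 and Dppa3 lie below the line.

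Of 208 genes that mark differentiated lineages 66 were on (31.7%), 76 low and 66 silent, with a median of 0.313 FPKM, beside 50.3% on among all protein-coding genes and their median of 1.04 FPKM. The lists overlap in a few members, such as Eomes and Gata6, which are counted in each list they belong to but once in these totals. With a threshold of 3 FPKM the number was 43, and with FPKM rescaled to TPM, which gives each library the same sum, it was 106, since 1 unit of that scale is less than 1 FPKM here. The genes on either side of the threshold were Gata6 with a mean of 1.04 ± 0.117 FPKM and Lhx1 with 0.955 ± 0.124 FPKM.

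Markers of the primitive streak, where mesoderm and endoderm first arise, were partly on. Of 24 genes of streak and early mesoderm 12 were on, a share near the 50.3% of all protein-coding genes. Brachyury (gene T), the factor of the streak and notochord, was at 64.8, 54.2 and 49.1 FPKM, highest in library 1. Wnt8a at 29.9, 24.8 and 24.1 FPKM and Wnt3 at 23.4, 22.2 and 20.9 FPKM, ligands of the forming streak, were also well above the threshold. Eomes, a factor that acts beside brachyury, was at 8.91, 5.84 and 5.56 FPKM, Cdx2, a factor of the posterior embryo and trophoblast, at 4.40, 2.69 and 2.65 FPKM and the ligand gene Fgf8 at 2.10, 2.15 and 2.32 FPKM. Genes of later mesoderm were silent: Mesp2 with 0 counts, the somite gene Meox1 and the heart and limb factors Hand1 and Hand2. Of 16 definitive endoderm genes 4 were on (25%) and 8 were silent. Those on were the chemokine receptor gene Cxcr4 at 5.66, 5.87 and 6.05 FPKM, Hhex at 1.08, 2.08 and 2.02 FPKM, Prdm1 at 1.12, 1.30 and 0.915 FPKM and Gata6. Among the silent ones were Sox17, Foxa2, Gata4, Hnf4a, the alpha-fetoprotein gene Afp and the pancreatic factor Pdx1.

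Genes listed for primitive and parietal endoderm were on in 11 of 18 cases (61.1%, beside 50.3% of all protein-coding genes). At 10 FPKM or more were 7, of which 6 are matrix or secreted proteins and 1 is a membrane receptor, genes that other cells also use. Sparc, a matrix glycoprotein, was at 83.3, 89.4 and 93.2 FPKM, follistatin (Fst), an Activin antagonist, at 88, 85.3 and 84.8 FPKM, the laminin gene Lamc1 at 37.3, 41.4 and 40.1 FPKM, the collagen IV genes Col4a1 at 26.1, 27.2 and 26.3 FPKM and Col4a2 at 22.9, 23.4 and 23.4 FPKM, the endocytic receptor gene Lrp2 at 20.6, 24.9 and 23 FPKM and the laminin gene Lamb1 at 17.4, 18 and 17.9 FPKM. The factors that define that lineage were low or at the threshold: Gata6 was at 0.959, 1.17 and 0.980 FPKM, Sox7 had a mean of 0.260 ± 0.117 FPKM, and Gata4 and Sox17 were silent. Of 16 trophoblast genes 6 were on (37.5%). The simple keratins Krt18 at 37.3, 39.7 and 45.4 FPKM and Krt8 at 11.1, 11.6 and 13.3 FPKM led, and the factors Eomes and Cdx2, given above for the streak, Ascl2 at 2.57, 1.81 and 2.44 FPKM and Gata3 at 1.97, 1.84 and 1.94 FPKM were on as well. Gata2 and Tfap2c were low, at means of 0.900 ± 0.0636 and 0.811 ± 0.177 FPKM, Elf5, a factor of trophoblast stem cells, was silent, and the placental genes Tpbpa and Prl3d1 had 0 counts.

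Of 31 neural genes 10 were on (32.3%, beside 50.3% of all protein-coding genes) and 8 silent. Tubb3, the neuronal beta tubulin, was at 26.3, 34.1 and 37.1 FPKM, Nes, the intermediate filament nestin, at 22.8, 18.7 and 18.9 FPKM, and Gap43, a growth cone protein, at 17.6, 18 and 17.2 FPKM. With the union of exons as length Nes was highest, at a mean of 41.4 FPKM. Sox3 was at 14.3, 10.2 and 10.1 FPKM, the microtubule regulator gene Stmn2 at 11.1, 11 and 11.5 FPKM and the RNA-binding protein gene Msi1 at 8.13, 8.60 and 8.82 FPKM. Silent regional genes include Pax6, Emx2, Pax3, Pax7 and, with 0 counts, the Notch target Hes5. Neural crest and mesenchymal genes were on in 11 of 19 cases (57.9%), near the 50.3% of all protein-coding genes. The smooth muscle proteins Tagln and Acta2 were at 72.8, 67.6 and 66.2 FPKM and at 51.7, 44 and 45.5 FPKM. Vimentin (Vim), highest with the union of exons as length, was at 40.5, 42.1 and 45.2 FPKM. Fibronectin (Fn1) was at 29.3, 35.2 and 35.6 FPKM. The defining factors of these cells were lower: Twist1 was at 8.17, 6.66 and 6.59 FPKM and Snai2 at 1.23, 1.66 and 1.72 FPKM, while Sox10 had a mean of 0.102 ± 0.0686 FPKM.

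Genes of the heart, which P19 cells can form after induction, were low or silent with 1 exception. The shares on were 4.35% (cardiac), 20% (skeletal muscle) and 17.6% (blood and endothelium), beside 50.3% of all protein-coding genes. Of 23 cardiac genes 1 was on, the cardiac actin gene Actc1 at 4.85, 3.93 and 4.37 FPKM, and 10 were silent, among them the sarcomere genes Tnnt2, Myl4 and Ttn, the pacemaker and progenitor factor Isl1 and, with 0 counts, Tbx5 and Tnni1. The cardiac factor Nkx2-5 had a mean of 0.246 ± 0.114 FPKM and the atrial myosin gene Myh6 one of 0.512 ± 0.0585 FPKM. In skeletal muscle 2 of 10 were on, desmin (Des) at 2.57, 2.81 and 2.59 FPKM and Acta1 at 1.14, 1.24 and 1.06 FPKM, while Myf5 had 0 counts and Myog was silent. Of 17 blood and endothelial genes 3 were on: Cd68, a lysosomal protein, at 2.92, 3.98 and 5.15 FPKM, lysozyme (Lyz2) at 6.20, 3.03 and 1.55 FPKM, highest in library 1, and the adult globin gene Hbb-bs at 2.26, 2.00 and 2.37 FPKM. The defining immune genes Ptprc (CD45) and Cd3e had 0 counts and the endothelial cadherin Cdh5 was silent.

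Germ-line genes were on in 3 of 16 cases (18.8%, beside 50.3% of all protein-coding genes). Sycp3, a protein of the meiotic chromosome axis, was at 14.9, 18.9 and 18.5 FPKM, and the receptor gene Kit at 3.59, 3.00 and 2.95 FPKM, while Dazl, Mael and Asz1 had 0 counts and Ddx4 (Vasa) was silent. Epithelial genes were on in 6 of 15 cases (40%). They were led by the adhesion gene Epcam at 60.7, 63.8 and 60.4 FPKM, the tight junction genes Tjp1 at 21.3, 23.7 and 21.8 FPKM and Cldn6 at 18, 16.9 and 16.5 FPKM, and E-cadherin (Cdh1) at 9.10, 10.2 and 10.1 FPKM. Keratins of stratified skin, Krt5 and Krt14, were silent, and Cldn7 had 0 counts. Of 39 Hox genes, which give cells their position along the body axis, 3 were on, with Hoxb9 highest at a mean of 2.82 FPKM, and 26 were silent. None of 1028 olfactory receptor genes and none of 293 vomeronasal receptor genes were on, and 986 and 280 of them had no count. Of 335 zinc finger genes named Zfp, 269 were on. Beside these groups taken by name, 50.3% of all protein-coding genes were on and 35.6% were silent.

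**Figure D3:**
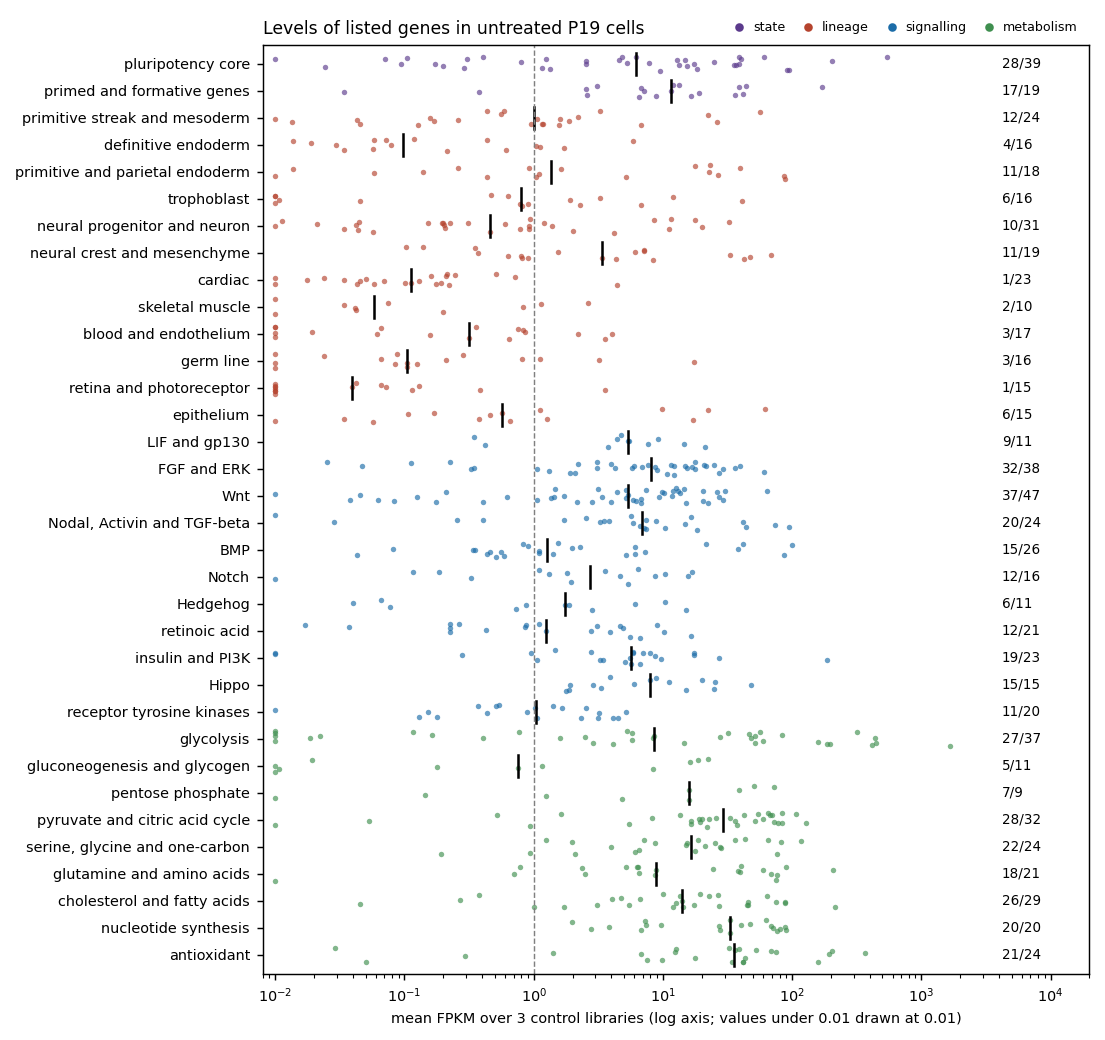
Mean FPKM over the 3 control libraries (log axis, values under 0.01 drawn at 0.01) of each gene of the state, lineage, signalling and metabolic lists, with the list's median as a black bar, a dashed line at 1 FPKM, and the number on of the number measured at the right. The medians of the cardiac, skeletal muscle and retinal lists are 0.112, 0.0585 and 0.0390 FPKM, and those of nucleotide synthesis and antioxidant genes 33.2 and 35.4 FPKM.

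Of 252 signalling genes 188 were on (74.6%), beside 50.3% of all protein-coding genes, with a median of 4.05 FPKM. The 20 silent ones include ligands of the FGF, Wnt, BMP, Hedgehog and insulin-like families. Near the share of protein-coding genes were the BMP (57.7%), Hedgehog (54.5%), retinoic acid (57.1%) and receptor tyrosine kinase (55%) lists. In the LIF pathway, which holds naive cells through Stat3, 9 of 11 genes were on. The receptor gene Lifr was at 3.89, 3.84 and 3.50 FPKM, its partner Il6st (gp130) at 4.55, 4.47 and 4.18 FPKM, the kinase gene Jak1 at 9.03, 9.52 and 9.08 FPKM and Stat3 at 5.51, 5.10 and 5.52 FPKM. The ligand gene Lif itself was low, at a mean of 0.420 ± 0.189 FPKM. The highest members were the Pim kinases Pim3 at 18.9, 22 and 22.4 FPKM and Pim1 at 11.1, 13.8 and 18.6 FPKM, which Stat3 is known to induce.

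In the FGF and ERK pathway 32 of 38 genes were on. Among ligands, Fgf15 was at 8.89, 6.51 and 7.52 FPKM, Fgf4, the ligand made by pluripotent cells, at 3.79, 3.06 and 2.39 FPKM, and Fgf1 and Fgf2 were silent. Fgfr1 led the receptors at 8.93, 8.47 and 8.48 FPKM. Downstream, Spred1, an inhibitor of Ras signalling, was at 28.3, 26.7 and 27 FPKM. Targets that feed back on the pathway were high in library 1 and lowest in library 3 for Dusp6, an ERK phosphatase, at 74.5, 58.5 and 47.4 FPKM, and close between libraries for Etv5, an ETS factor, at 37.8, 35.3 and 35.6 FPKM and Dusp4 at 27, 29.3 and 30.8 FPKM. Egr1, an immediate early gene, was at 6.95, 2.91 and 2.06 FPKM, and 22 of the 32 genes were highest in library 1, beside 37.9% of all genes on.

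In the Wnt pathway 37 of 47 genes were on. Besides Wnt3 and Wnt8a, the ligands Wnt5b at 3.29, 2.82 and 2.40 FPKM and Wnt11 at 1.97, 2.08 and 2.40 FPKM were on, while Wnt1, Wnt3a and Wnt7b were silent and Wnt10a had 0 counts. The receptor genes were led by Fzd10 at 35, 28.8 and 27.5 FPKM and Fzd7 at 21, 20.5 and 19.5 FPKM. Beta-catenin (Ctnnb1), the effector, was at 61.3, 60.6 and 70.3 FPKM, Tcf7, one of its DNA-binding partners, at 26.3, 30.3 and 31.1 FPKM, and Gsk3a, the kinase that marks it for destruction, at 28.3, 28.1 and 25.5 FPKM. Axin2, a target and inhibitor of the pathway, was at 9.75, 9.51 and 10.1 FPKM, and Lgr5, a receptor of adult stem cells, was silent.

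In the Nodal, Activin and TGF-beta pathway 20 of 24 genes were on. Beside Nodal, Lefty1 and Tdgf1, the highest members were Foxh1, the DNA-binding partner of Smad2, at 69, 74.3 and 79.1 FPKM, Smad4 at 14.9, 17.5 and 17.3 FPKM and the receptor gene Acvr1b at 14.7, 15.6 and 14.3 FPKM. The Activin subunit genes Inhba and Inhbb were low, at means of 0.403 ± 0.0693 and 0.254 ± 0.0305 FPKM, and the receptor gene Acvr1c and Cfc1, the other Cripto family member, were silent. In the BMP pathway 15 of 26 genes were on. Its targets Id2 at 91.7, 107 and 101 FPKM, Id1 at 40.4, 42.7 and 42.4 FPKM and Id3 at 33.1, 39.3 and 42.2 FPKM, inhibitors of differentiation factors, stood above its ligands, of which Bmp4 was highest at 1.95, 2.17 and 1.87 FPKM. The receptor gene Bmpr1a was at 22.3, 22 and 20.5 FPKM, and the antagonist noggin (Nog) at 3.95, 7.17 and 7.02 FPKM, lowest in library 1.

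Of 16 Notch genes 12 were on, led by the coactivator gene Maml1 at 16.8, 16.4 and 17.3 FPKM, the ligand gene Jag2 at 15, 16.6 and 15.4 FPKM and the receptor gene Notch2 at 10.2, 10.7 and 10.5 FPKM. The target gene Hes1 was at 8.57, 6.64 and 3.97 FPKM, highest in library 1 and lowest in library 3. Of 11 Hedgehog genes 6 were on, and the 3 ligand genes Shh, Ihh and Dhh were silent, while the receptor gene Smo was at 16.1, 14.1 and 15 FPKM and Gli3, the main repressor form of the Gli factors, at 10.5, 11 and 9.75 FPKM. In the retinoic acid pathway, by which P19 cells are turned to neurons, 12 of 21 genes were on. The receptor genes Rara at 12.1, 9.23 and 9.52 FPKM and Rarg at 6.23, 5.36 and 5.00 FPKM and the binding protein genes Crabp2 at 17.2, 16.3 and 16.1 FPKM and Crabp1 at 7.99, 10.3 and 8.81 FPKM were on. Rarb, a receptor that retinoic acid itself induces, had a mean of 0.427 ± 0.133 FPKM, Cyp26a1, which degrades retinoic acid, was near the threshold at 1.30, 1.16 and 1.31 FPKM, and Hoxb1, an early target, was low.

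In the insulin and PI3K pathway 19 of 23 genes were on. Igfbp2, which binds insulin-like growth factors outside the cell, was far above the rest at 169.7, 196 and 197 FPKM, lowest in library 1. The kinase gene Mtor was at 17.2, 18 and 16.7 FPKM, the receptor gene Igf1r at 8.78, 8.85 and 8.29 FPKM and its ligand gene Igf2 at 5.43, 5.84 and 5.52 FPKM, while Igf1 and the leukocyte kinase gene Pik3cg had 0 counts. All 15 measured Hippo genes were on, with the target gene Cyr61 at 52.5, 47.2 and 45.6 FPKM, the DNA-binding partner Tead2 at 24.1, 25.1 and 26.6 FPKM, the kinase gene Stk4 at 26.5, 25.1 and 23.6 FPKM and the effectors Yap1 at 14.6, 15.4 and 15 FPKM and Wwtr1 (TAZ) at 11.3, 11.5 and 10.7 FPKM. Of 20 other receptor tyrosine kinases 11 were on, none at 10 FPKM or more. Erbb2 was at 5.06, 4.92 and 5.50 FPKM, Flt4 at 4.14, 4.59 and 4.84 FPKM and Axl at 4.31, 4.15 and 3.90 FPKM, and Ros1 was silent.

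Metabolic genes were on in 174 of 207 cases (84.1%), beside 50.3% of all protein-coding genes, with a median of 18.6 FPKM. The 17 silent ones include forms known from liver and testis. In glycolysis 27 of 37 were on. Glucose uptake was led by Slc2a3 at 138, 171 and 165 FPKM, lowest in library 1, over Slc2a1 at 60.6, 57.7 and 59.4 FPKM. Phosphoglycerate mutase (Pgam1) at 463, 453 and 433 FPKM, phosphoglycerate kinase (Pgk1) at 449, 433 and 433 FPKM and lactate dehydrogenase (Ldha) at 322, 325 and 308 FPKM followed Pkm. The muscle and fat transporter Slc2a4 was at 2.79, 4.46 and 5.05 FPKM, and the liver transporter Slc2a2, Hk3 and the testis enzymes Gapdhs and Ldhc had 0 counts. Lactate export genes Slc16a1 at 47.5, 54.5 and 53 FPKM and Slc16a3 at 57.5, 51.4 and 46.6 FPKM were close to each other. In gluconeogenesis and glycogen 5 of 11 were on (45.5%), near the 50.3% of all protein-coding genes. The mitochondrial Pck2 was at 14.9, 23.2 and 29.4 FPKM, while the cytosolic Pck1 was silent and the glucose-6-phosphatase gene G6pc had 0 counts. With the union of exons Pck2 had a mean of 9.81 FPKM and another member was highest.

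Of 9 pentose phosphate genes 7 were on, with transaldolase (Taldo1) at 68.6, 76.9 and 73.1 FPKM, transketolase (Tkt) at 50.1, 49.8 and 51.7 FPKM and the first enzyme, G6pdx, at 15.5, 15.4 and 16.6 FPKM. Pyruvate and citric acid cycle genes were on in 28 of 32 cases, 25 of them at 10 FPKM or more. Citrate synthase (Cs) was at 127, 133 and 127 FPKM by the deposited length but at a mean of 63.1 FPKM with the union of exons. Succinate dehydrogenase subunit Sdhd was at 129.7, 101 and 90.2 FPKM, highest in library 1. With the union of exons Sdhd was the highest of the list, at a mean of 112 FPKM. The pyruvate dehydrogenase subunit Pdhb was at 88, 82.1 and 82.2 FPKM. The pyruvate carrier genes Mpc1 and Mpc2 were low, at means of 0.518 ± 0.166 and 0.945 ± 0.0910 FPKM, and Pdk4, the pyruvate dehydrogenase kinase of fasting muscle, was silent. Mpc1 has 2 near copies in the annotation that are not in the table, so its level is uncertain in the way of Gapdh.

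Of 24 serine, glycine and one-carbon genes 22 were on. Shmt2, the mitochondrial enzyme that takes a carbon from serine, was at 106, 115 and 129.6 FPKM, Mthfd1 at 85.5, 79.5 and 83.2 FPKM and Psat1, an enzyme of serine synthesis, at 55.4, 61.2 and 79.7 FPKM. Tdh, the threonine dehydrogenase known as a feature of mouse pluripotent cells, was at 7.11, 9.06 and 9.94 FPKM, and Gldc, of the glycine cleavage system, at 26.1, 29.9 and 28.5 FPKM. Psat1, Shmt2 and Tdh were lowest in library 1 and highest in library 3. In glutamine and amino acid metabolism 18 of 21 were on, led by Odc1, the first enzyme of polyamine synthesis, at 205, 209 and 204 FPKM, with glutamine synthetase (Glul) at 77.8, 76.5 and 75.8 FPKM and Arg1, the liver arginase, at 0 counts.

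Cholesterol and fatty acid genes were on in 26 of 29 cases. The desaturase gene Scd2 was at 213, 221 and 206 FPKM, fatty acid synthase (Fasn) at 84.8, 93.6 and 87.1 FPKM and Hmgcs1, of an early step to cholesterol, at 80.6, 72.1 and 70.9 FPKM. Elovl6, which lengthens fatty acids, was at 28.4, 15.4 and 13.8 FPKM, highest in library 1. All 20 nucleotide synthesis genes were on, 13 of them at 10 FPKM or more. The purine salvage enzymes Aprt and Hprt were at 91.6, 89 and 86.9 FPKM and at 95.4, 86.1 and 84.7 FPKM. With the union of exons Aprt had a mean of 47.8 FPKM and another member was highest. Gart, of purine synthesis from scratch, was at 81.5, 80.8 and 80.5 FPKM. The ribonucleotide reductase subunits Rrm1 and Rrm2 were at 79, 79.6 and 70.7 FPKM and at 77.4, 69.99 and 67 FPKM. Among antioxidant genes 21 of 24 were on, and Sod1, the cytosolic superoxide dismutase, was at 373, 361 and 357 FPKM by the deposited length but at a mean of 59.1 FPKM with the union of exons, with which Prdx1 was highest. Thioredoxin (Txn1) was at 209.9, 212 and 193 FPKM, Prdx1 at 209.8, 193 and 175 FPKM and the glutathione transferase gene Gsta4 at 177, 156 and 147 FPKM. Sod3, which is secreted, and the gut enzyme Gpx2 were silent, and Gstp1 was low at a mean of 0.295 ± 0.511 FPKM.

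In 94 gene families the share of each member in the family's summed FPKM was taken per library and averaged. A family here is the set of members chosen for it and need not hold every paralog. A dominant paralog, with at least 80% of the sum, was found in 35 families, and in 16 the leader held over 95%. In 87 families the libraries of the leader and of the second member did not overlap, and in 7 they did. Leader and second were picked by their means over these same libraries, so these counts do not test the order. With 3 pairs no exact two-sided test can give a p below 0.25, so none is given. 

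Among regulators of the pluripotent state, Pou5f1 held 98% ± 0.272 of the 6 POU genes summed, Otx2 99.1% ± 0.221 of its pair, Lefty1 94.4% ± 1.37, and Lin28a 84.8% ± 0.673 against Lin28b. In 10 of the 35 families with a dominant paralog the second member has a near copy in the annotation, and in 16 the leader has one, so these shares are uncertain; Lefty2 has Lefty1 itself as a near copy. Dnmt3b held 73.9% ± 0.735, Sox2 73.8% ± 2.31 and Mycn 71.8% ± 3.65, all short of dominance. By counts not divided by length, Dnmt3a was above Dnmt3b. Myc itself was at 2.86, 2.34 and 2.36 FPKM, below Mycn at 17, 14.9 and 14.5 FPKM. Sall1 was at a mean of 32.0 FPKM and held 50.1% ± 2.13, above Sall2 at 15.5 FPKM, and Sall4, the family member best known in pluripotent cells, was at 9.86, 9.53 and 9.22 FPKM. Ezh2, the methyltransferase of Polycomb, held 87.6% ± 0.438 against Ezh1, and Tet1 held 54.4% ± 2.70 over Tet3.

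Among signalling families, Bmpr1a held 86.7% ± 1.84 of the BMP type I receptors and Gli3 80.1% ± 2.28 of the Gli factors. Fgfr1 held 70.8% ± 3.17, Gsk3a 74.8% ± 1.86, Tead2 75.8% ± 3.53 and Tcf7 57.1% ± 3.83. The Frizzled receptors were spread widely, with Fzd10 at 32.3% ± 2.28. The activin and BMP Smads were nearly even, with ranges that overlapped between libraries, though the leader was the higher of the pair within each of the 3 libraries: Smad3 was at 8.28, 7.30 and 6.60 FPKM and Smad2 at 6.44, 7.14 and 6.34 FPKM, and Smad5 was at 7.84, 6.18 and 7.97 FPKM and Smad1 at 6.04, 5.73 and 6.37 FPKM. The same was true of Lrp6 and Lrp5, at 14.2, 11.3 and 10.2 FPKM and 10.4, 10.5 and 9.97 FPKM.

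Several metabolic families had 1 leader far above the rest. Pkm at a mean of 1677 ± 34.9 FPKM stood against Pklr, the liver and red cell enzyme, at 0.164 ± 0.0607 FPKM, Pgam1 at 449.6 ± 15.2 against the muscle form Pgam2 at 0.404 ± 0.166, and Pgk1 at 438 ± 8.86 against the testis form Pgk2 at 0.0187 ± 0.0325. Aldoa held 95.8% ± 0.103 of the aldolases, Ldha 92% ± 0.648 of the lactate dehydrogenases, Hk2 88.7% ± 0.774 of the hexokinases and Scd2 82.6% ± 0.297 of the desaturases. Mat2a held 99.2% ± 0.496 over the liver form Mat1a. Slc2a3 held 71.3% ± 2.45 of the 4 glucose transporters summed and Pfkl 64.4% ± 1.52 of the phosphofructokinases, with Pfkm at a mean of 32 ± 1.74 FPKM. Eno1b held 87% ± 0.602 of the enolases, and being a near copy of Eno1 it is uncertain as a paralog of its own. Cox4i1 was at a mean of 77.6 FPKM while Cox4i2, the form used at low oxygen, had 0 counts.

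Among families of the cell's machinery, Ccna2 held 98.6% ± 0.358 over the germ cell cyclin Ccna1, Cdk4 91.3% ± 1.14 over Cdk6, Ccnb2 88.8% ± 1.51 over Ccnb1 and Rbl1 (p107) 81.3% ± 2.70, with Rb1 at 0.957, 1.13 and 0.961 FPKM. The histone variant gene H3f3b held 88.7% ± 1.11, H2afv 92.5% ± 1.19 over H2afz, the lamin gene Lmnb1 83.1% ± 0.518 and talin 1 (Tln1) 85.9% ± 0.932. Ccnb1 and H2afz have 4 near copies each in the annotation, none of them in the table, so the shares of Ccnb2 and H2afv are uncertain in the way of Gapdh. H3f3a, the second to H3f3b, has 19. Lamin A/C (Lmna), a lamin of differentiated cells, was at a mean of 3.08 ± 0.419 FPKM. Actg1 and Actb overlapped, at means of 214 ± 22.1 and 205 ± 41.6 FPKM, as did Vim and Krt18. The leader of some families differed when near copies were added to the member they match best: Eif4a1 then held 68.2% in place of Eif4a3 at 47.1%, and Cdh11 57.7% in place of Cdh2 at 42.2%. Pabpc1 was then short of dominance, at 79.7% against 88.2%. For Cdh11 all counts of 4 copies were added, though only 753 to 909 bases of each were aligned. Counts from outside the match can thus be included, and that Cdh11 share is uncertain. In 15 of 83 families with a ratio that are reported, the order of the leader and the second member was the other way under at least 1 alternative, among them Id2 and Id1, and Ccnd1 and Ccnd2, whose order turned with the gene length used.

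**Figure D4:**
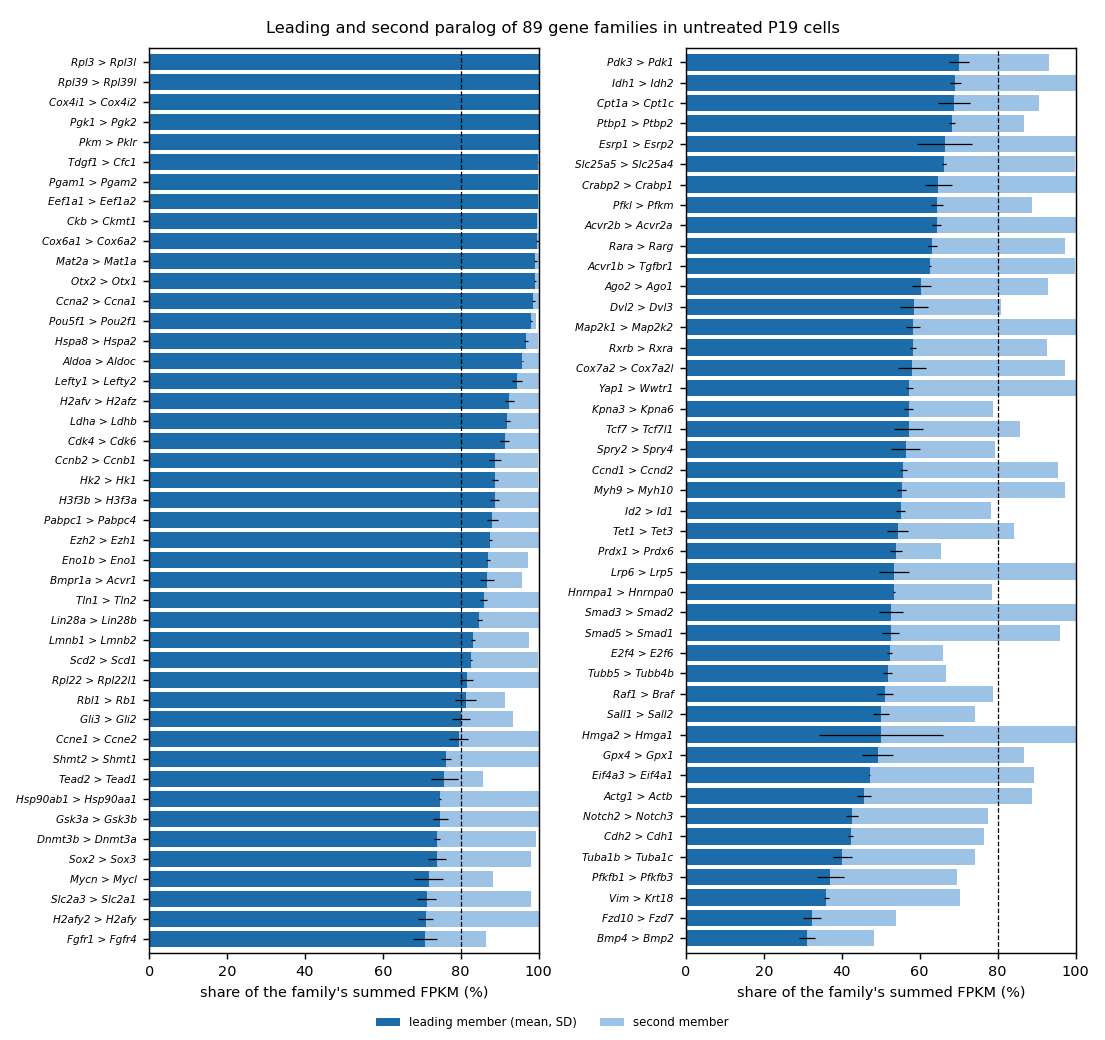
Share (%) of the leading member (dark bar, mean with SD over 3 libraries) and of the second member (light bar) in the summed FPKM of 89 of the 94 gene families, labelled leader > second, with a dashed line at 80%. The 34 drawn families with a dominant paralog are at the top left, and the bar of Hmga2 has the widest error, with an SD of 15.8 percentage points.

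Cell cycle genes were on in 23 of 28 cases (82.1%, beside 50.3% of all protein-coding genes). Topoisomerase Top2a was at 128, 123 and 117 FPKM, Ccnb2 at 70.8, 78.4 and 75.8 FPKM, Cdk4 at 53.8, 54.7 and 55.1 FPKM and the proliferation marker gene Mki67 at 53.2, 52.5 and 51.7 FPKM. The inhibitor genes were lower, Cdkn1b (p27) at 10.04, 9.12 and 9.06 FPKM and Cdkn1a (p21) at 7.56, 7.67 and 10.3 FPKM. Trp53, the tumour suppressor gene p53, was low in every library at 0.337, 0.303 and 0.239 FPKM, from 25, 23 and 19 counts, while Mdm2, its inhibitor and target, was at 7.08, 6.93 and 6.57 FPKM. No near copy of Trp53 was found in the annotation. Rb1 and Rbl2 were near or under the threshold, Rbl2 at 0.682, 1.03 and 0.836 FPKM.

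The Y-linked genes Ddx3y at 2.86, 2.94 and 2.96 FPKM and Eif2s3y at 2.59, 2.52 and 2.62 FPKM were on, and Kdm5d and Uty were low, at means of 0.470 ± 0.0851 and 0.387 ± 0.0239 FPKM. Xist, the RNA that silences an X chromosome, was silent with 4, 3 and 6 counts, and Sry, the testis-determining gene, had 0 counts. Of 20 measured imprinted genes, which are expressed from 1 parental copy, 14 were on (70%). Beside this, 50.3% of protein-coding genes and 33.1% of all genes were on. The paternally expressed genes Peg10 at 205, 236 and 233 FPKM, Snrpn at 224, 224 and 219.7 FPKM, Impact at 133, 167 and 161 FPKM, Mest at 99.2, 105 and 113 FPKM and Peg3 at 65.4, 74.4 and 70.1 FPKM were high. Meg3, a maternally expressed long RNA, was at 22.9, 28.5 and 27.3 FPKM, and its neighbour Dlk1, expressed from the paternal copy, had a mean of 0.361 ± 0.0439 FPKM. H19, another maternal RNA, had 5, 0 and 5 counts, Nnat had 0, and Kcnq1ot1 was silent. Among long noncoding RNAs, 11 of 19 were on (57.9%, beside 50.3% of protein-coding and 33.1% of all genes). Malat1 was at 58.6, 95.4 and 94.9 FPKM and Neat1 at 3.77, 6.06 and 10.8 FPKM, both lowest in library 1. Snhg14, Tug1 and Snhg1 were between 15.2 and 20.2 FPKM by mean.

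Most genes varied little between the 3 libraries. Over the 4540 genes at 10 FPKM or more, the median SD was 5.36% of the mean, against 3.07% from counting alone, and 174 genes (3.83%) had an SD over 20% of the mean. Without library 1 the median was 3.14%. No pair of libraries was the same library: the chi-square of their counts over its degrees of freedom was 5.48 for libraries 2 and 3, 8.25 for 1 and 2 and 9.86 for 1 and 3. The widest ratio belonged to mt-Nd4l, with 7373, 1 and 5664 counts, whose near copy Gm10222 had 1904, 943 and 2120 counts. It was followed by mt-Nd6 at 225, 74.8 and 31 FPKM, encoded on the opposite mitochondrial strand from the other protein genes, highest in library 1.

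Next came genes of a stress response that were lowest in library 1 and highest in library 3. Ddit3 (CHOP), a factor of stress-induced death, was at 4.45, 18.8 and 30.9 FPKM, Chac1, a glutathione-degrading enzyme, at 9.82, 46.2 and 66.2 FPKM, and Herpud1, a protein of the endoplasmic reticulum (ER) quality control, at 7.14, 24.7 and 42.2 FPKM. Atf3 was at 3.92, 12.3 and 17.7 FPKM and Trib3, an inhibitor of the same response, at 6.10, 16.3 and 26.1 FPKM. Cd63-ps, a pseudogene, was at 5.77, 32.3 and 32.3 FPKM, low in library 1. A list made of the factor gene Atf4 and genes of its response to lack of amino acids and to unfolded protein was taken to describe them, chosen with this pattern known. Of its 24 genes that were on, 22 were lowest in library 1 and 21 highest in library 3, beside 38.9% and 34.8% of all genes on, and their mean log2 deviation was -0.46, 0.11 and 0.36 in libraries 1, 2 and 3. Atf4 itself was at 167, 223 and 244 FPKM. The ER chaperone list was also chosen with earlier results of these data known, so its counts do not test the pattern. Of 18 ER chaperone genes 17 were lowest in library 1 and 17 highest in library 3, with mean log2 deviations of -0.19, -0.03 and 0.21. Hspa5 (BiP), at 114, 82.5 and 99.6 FPKM, was the exception in both. Asns, the asparagine synthetase of the Atf4 list, was at 59.98, 68.6 and 77.1 FPKM, with a smaller span. The part of culture, RNA or library preparation in these differences was not tested.

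**Figure D5:**
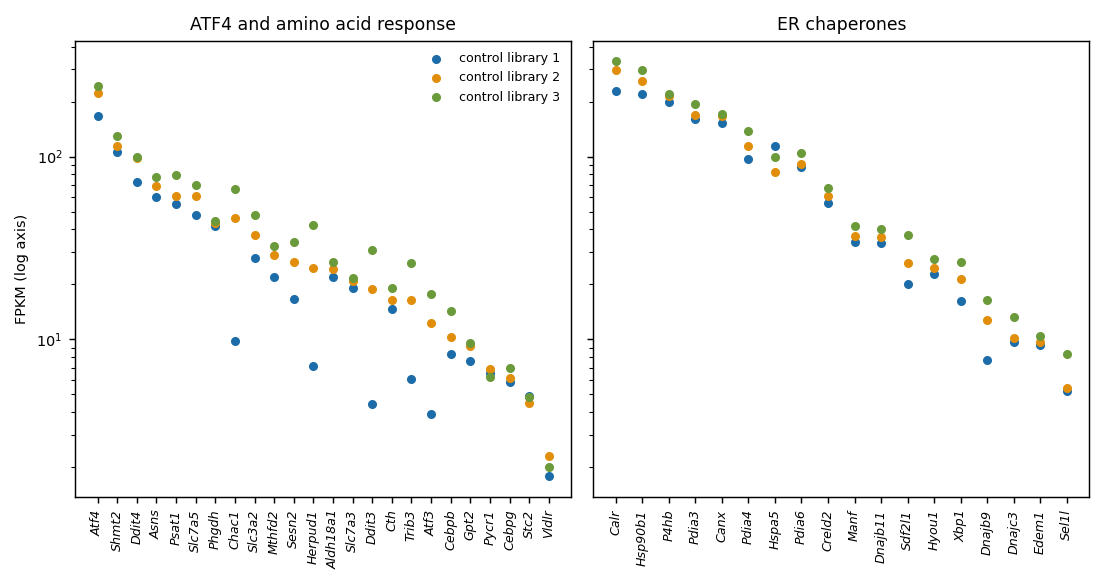
FPKM (log axis) in control libraries 1, 2 and 3 of the 24 genes of the Atf4 list (left) and 18 ER chaperones (right) with a mean of at least 1 FPKM, ordered by mean. The points of library 1 lie lowest for 22 and 17 of them, and Ddit3 spans 4.45 to 30.9 FPKM.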

How the data were processed

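Gene levels of 3 control libraries of P19 cells were described, grouped by the treatment in their labels, with table columns assigned by sample title. The deposited count columns hold raw integers, judged from the file headers and the values. The deposited FPKM columns divide these counts by a gene length and by the size of the library, judged in the same way. The submitters' processing notes list Bowtie 0.12.2, mm8 and mm9 without saying how they were used. Which program counted reads, whether strand was used and what was done with multiple matches is not given in the sources used here, so overlapping, antisense and near-identical genes are uncertain. Of 34745 identifiers, 34344 were found in GENCODE mouse release 21 and 27776 had the same position there, so coordinates are in GRCm38. The gene length implied by count and FPKM matched the sum of all distinct annotated exons within 1% for 67.7% of 11468 genes, with overlapping exons of different transcripts counted repeatedly. Its median ratio to the union of exons was 1.21 (5th to 95th percentile 0.464 to 2.16). Against the union, a ratio above 1 lowers the FPKM of a gene and a ratio below 1 raises it.

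Means, SDs and shares were computed with Python 3.11.15 and pandas 2.3.3. The threshold for on was a mean of 1 FPKM and for a dominant paralog 80% of the family's summed FPKM, in families with at least 1 FPKM. Near copies were found with blastn 2.17.0 against GENCODE transcripts. The gene lists, families and members were chosen with earlier results of these data known. Named are the 25 highest genes with a gene name, up to 6 highest and 6 silent members of each list, the leader and second of families, the 8 genes at 10 FPKM or more with the widest ratio between libraries, and the 4 markers; members of lists and families were left out where they added nothing. Alternatives were leaving out each library, TPM, the median, other gene lengths, thresholds and filters, raw counts, TMM scaling with edgeR 4.0.16 in R 4.3.3, a pseudocount of 1 FPKM for the spread, and, chosen after the data were seen, the union of exons and the treatment of near copies. The steps were tested on simulated data. Some list members, 1 near copy and 5 families are not reported here.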

Additional observations from a re-analysis of the deposited data

How the results depend on the processing

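Values here have no test, so no adjusted p could be lost. No paired analysis was possible because 1 group is described and its results come from no test. The number of lineage genes on was 106 by TPM and 43 at 3 FPKM, against 66, and 62 with members that have a near copy left out. Families with a dominant paralog numbered 59 at a threshold of 60% and 20 at 90%, against 35. Genes on numbered 8672 at 3 FPKM to 14048 by TPM. The median spread ran from 3.14% without library 1 to 5.33% without library 2, and was 5.38% with TMM scaling. Leaving out 1 library gave 11476 to 11487 genes on, 65 to 66 lineage, 186 to 187 signalling and 174 metabolic genes, and 34 to 35 dominant paralogs.

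Of 83 reported families with a ratio, 68 kept the order of leader and second under every setting run. For the others the log2 ratio of leader to second changed sign as follows. With the longest transcript as gene length it was -0.23 for Id2 over Id1, -0.11 for Map2k1 over Map2k2, -0.82 for Pfkfb1 over Pfkfb3, -0.30 for Ccnd1 over Ccnd2 and -0.23 for Eif4a3 over Eif4a1. With the union of exons it was -0.54 for Id2, -0.09 for Yap1 over Wwtr1, -0.15 for Acvr2b over Acvr2a, -0.75 for Pfkfb1, -0.16 for Gpx4 over Gpx1, -0.063 for Ccnd1, -0.27 for Eif4a3 and -0.14 for Myh9 over Myh10. By counts not divided by length it was -0.15 for Dnmt3b over Dnmt3a, -0.088 for Map2k1, -0.69 for Acvr2b, -0.30 for Acvr1b over Tgfbr1, -1.66 for Pfkfb1, -0.28 for Pdk3 over Pdk1, -0.044 for Cox7a2 over Cox7a2l, -1.06 for Ccnd1, -1.30 for Eif4a3 and -0.58 for H2afy2 over H2afy. With near copies added it was -1.39 for Eif4a3. Without 1 library Pfkfb1 over Pfkfb3 ran from -0.024 (library 3 left out) to 0.51 (library 1 left out). Hmga2 over Hmga1 was -0.011 as a mean of log2 ratios, ran from -0.33 without library 2 to 0.53 without library 1, and was 0.45 by the median and 0.19 by counts. The alternatives with other lengths change the divisor alone; for the rest the cause was not tested. Depth limits the low genes: 3 counts at 1 kilobase are 0.268 to 0.287 FPKM.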
